A study of Mus musculus with 6 samples.

Results

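Cytosolic ribosomal protein genes were compared between 2 groups of sorted mouse bone marrow cells. The members are the protein-coding genes of the count table whose symbol begins with Rpl or Rps and a number, together with Rpsa, Rplp0, Rplp1 and Rplp2, without the S6 kinases. They number 92 of the 55401 gene IDs in the table. Of these, 46 encode proteins of the large (60S) subunit and 31 proteins of the small (40S) subunit, 8 are paralogues of such genes, 6 are retrocopies with "-ps" in the symbol that the annotation lists as protein-coding, and 1, Rps19bp1, encodes a binding partner of Rps19 and no ribosomal protein. The rule does not take Fau, which encodes a ribosomal protein fused to a ubiquitin-like protein, or Rack1, a scaffold of the 40S subunit, and these are described apart.

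RNA came from 6 bulk libraries of 2000 sorted cells each, 3 per group. The LSK group held Lin-Sca-1+c-Kit+ cells, the stem and progenitor cell fraction of marrow, from mice of the strain C57BL/6 aged 6 to 8 weeks and labelled wild type and untreated. The ESC-derived group held Lin-Sca-1+c-Kit- cells, also labelled wild type and with ESC differentiation as the treatment, from the marrow of primary recipients that had received CD144+ cells sorted from differentiating embryonic stem cells (ESCs). The groups therefore differ in c-Kit gate, origin and host. The strain and age of the recipients, the ESC line and the antibodies behind the term Lin are not stated in the labels, and recipients can keep blood cells of their own. The labels do not say whether the 3 libraries of a group came from separate animals, so p-values measure the spread between these libraries, which may be technical.

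Each ribosome is built from ribosomal RNA and about equal numbers of copies of its proteins, so cells make ribosomal protein mRNAs in a coordinated way and degrade surplus protein. Many of these mRNAs start with a run of pyrimidines, the 5′ terminal oligopyrimidine (TOP) motif, through which the kinase complex mTORC1 and the binding protein LARP1 control their translation and stability. Blood cells are sensitive to the supply: loss of 1 copy of one of several ribosomal protein genes causes Diamond-Blackfan anaemia, a failure of red cell production, and stem cells in marrow make protein slowly.

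Total estimated counts ran from 41580006 to 49269286 per library. A scaling factor from TMM, which sets libraries to a common level on genes that differ little, was 1.03 to 1.14 in LSK libraries and 0.884 to 0.962 in ESC-derived ones. Levels in CPM are counts scaled to a common library size with these factors. Of 8 LSK markers, Ly6a (Sca-1) was higher and 7 were lower in ESC-derived cells, with Hoxa9 at 0 counts in the 3 ESC-derived libraries. The 8 T cell markers summed to 113 to 142 CPM in LSK and 11226 to 11971 CPM in ESC-derived libraries, and all 8 were higher. The 8 B and plasma cell markers summed to 41767 to 58356 against 274 to 385 CPM, and all 8 were lower. Neutrophil markers summed to 1101 to 1211 against 2174 to 4287 CPM, with 5 of 8 higher and 1 lower. Of 6 tested erythroid markers 1 was lower, and Alas2 was at 0 in every library. Over 8345 genes with at least 10 CPM, a weighted mean of LSK replicates 1 and 3 came within a residual SD of 0.266 (log2) of LSK replicate 2, against 0.420 to 0.611 for each other library and the 2 others of its group, so results are also given without LSK replicate 2.

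Ribosomal protein mRNAs took a similar part of all counts in both groups, and which group had more depended on the denominator. The members held 5.68, 5.88 and 6.37% of all counts in LSK replicates 1 to 3, 5.98 ± 0.355% (mean ± SD, n = 3 libraries per group throughout). In ESC-derived replicates 1 to 3 they held 5.63, 5.85 and 4.86%, 5.44 ± 0.516%. The ranges overlapped: ESC-derived replicate 3 was the lowest of the 6 and LSK replicate 3 the highest. Immunoglobulin genes took 7.54, 8.501 and 9.48% of the LSK counts and 0.0188 to 0.0373% of the ESC-derived counts. With immunoglobulin counts left out of the total, the share was 6.14, 6.43 and 7.04% in LSK and 5.63, 5.85 and 4.86% in ESC-derived libraries, and every ESC-derived value lay below every LSK value. Among protein-coding counts the share was 6.71, 7.04 and 7.74% in LSK and 5.97, 6.25 and 5.16% in ESC-derived libraries, again without overlap. With the TMM-scaled library size as the denominator it was 5.01, 5.35 and 6.17% and 6.196, 6.62 and 5.06%, with a higher mean in ESC-derived cells and overlapping ranges. No direction of the total is therefore claimed. In bulk RNA, fewer cells of a type and less RNA per cell cannot be told apart.

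**Figure D1:**
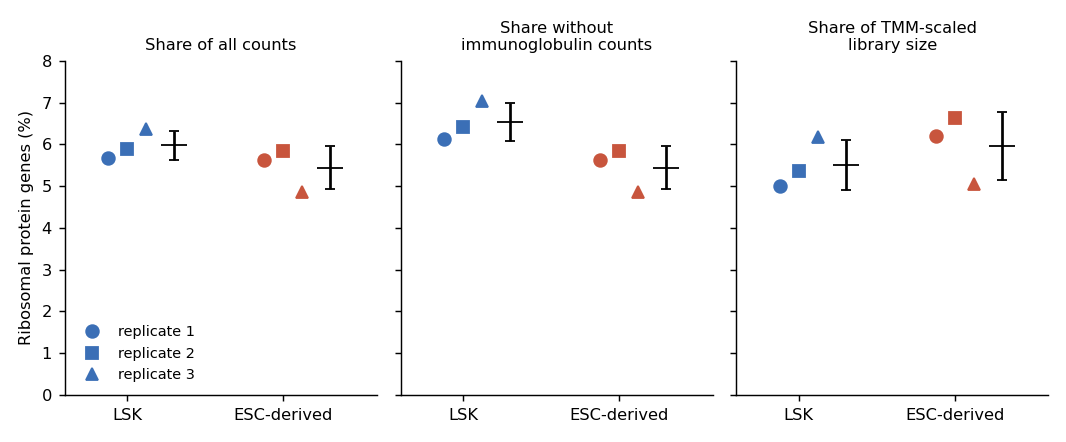
Share of each library in counts of the 92 ribosomal protein genes (percent, y axis) for the 3 LSK and 3 ESC-derived libraries, with 3 denominators. Points are libraries, and black bars are the mean ± SD. The ranges overlap for all counts and for the TMM-scaled size, and the ESC-derived values lie lower once immunoglobulin counts are left out.

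The balance of the subunits was close. Genes of the 40S subunit made up 40.8, 39.7 and 39.5% of the ribosomal protein counts in LSK libraries and 41.1, 39.5 and 40.7% in ESC-derived libraries, and genes of the 60S subunit 56.3, 57.6 and 58.1% and 55.9, 57.6 and 56.5%. Both pairs of ranges overlapped. The 8 most abundant members, among them Rpl13, Rpl35, Rplp0, Rpl32, Rps14 and Rpl4, held 28.4 to 29.9% of the ribosomal protein counts in LSK and 29.8 to 30.8% in ESC-derived libraries. Divided by the length of a chosen RefSeq-matched transcript, the mean over the 6 libraries was highest for Rpl13, at 4382 CPM per kb, followed by Rpl32 at 3376 and Rps14 at 2872 CPM per kb. Rpl22 stood at 64.3 CPM per kb, so levels per length differed widely between genes of one particle.

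Of the 92 members, 88 passed the filter on low counts and were tested. In ESC-derived against LSK cells, 9 were higher and 3 lower at an adjusted p under 0.05 (edgeR quasi-likelihood test with Benjamini-Hochberg adjustment over 16211 genes). That is 12 of 88 members, beside 30.0% of all genes tested, 14.8% higher and 15.2% lower. The higher members included Rps25, Rps27 and Rps23 of the 40S subunit and Rpl13a, Rpl27, Rpl23a, Rpl12 and Rpl34 of the 60S subunit. The lower ones were Rps4x and Rps20 of the 40S subunit and Rpl10a of the 60S subunit. The median log2 fold change was 0.096 over the members and -0.066 over all genes. Of the 88, 74 had a log2 fold change within 0.5 of 0, which is 84.1%, beside 33.3% of all genes, many of them expressed at far lower levels, and 57.7% of the mitochondrial ribosomal protein genes. By CPM alone, 16 members were higher in every ESC-derived than in every LSK library and 4 lower, beside 22.6% and 27.2% of all genes.

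These counts moved with single libraries and with scaling. Without LSK replicate 2, 2 members were higher (Rpl27 among them) and 0 lower in the edgeR fit (9 and 5 at an unadjusted p under 0.05), beside 8.61% and 7.34% of genes (15.9% in either direction). Without ESC-derived replicate 3, 22 were higher and 1 lower, beside 12.1% and 13.7% (25.8% in either direction). Without LSK replicate 1, 4 were higher and 5 lower, beside 10.5% and 11.1% of genes, and without LSK replicate 3, 6 and 0, beside 11% and 11.4%. Without ESC-derived replicate 1, 4 were higher and 1 lower, beside 11.8% and 13.2%, and without ESC-derived replicate 2, 3 and 3, beside 11.2% and 12.6%. With the replicate number as a block, 4 were higher and 0 lower, beside 10.7% and 9.18%. With library totals in place of TMM, 3 were higher (Rpl13a and Rpl27 among them) and 14 lower, beside 10.8% and 18.9% of genes (29.7% in either direction), and the median was -0.15 over the members and -0.31 over all genes. The member median lay 0.16 above that of all genes under each of the 4 scalings (TMM, RLE, upper quartile and library totals). That gap cannot serve as a check, since a scaling shifts the log2 fold changes of all genes by nearly the same amount. The CPM of most members moved together between libraries of a group. Among the 77 genes of the 2 subunits, ESC-derived replicate 3 had the lowest CPM of its group for 69, LSK replicate 1 the lowest of its group for 59 and LSK replicate 3 the highest for 66.

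**Figure D2:**
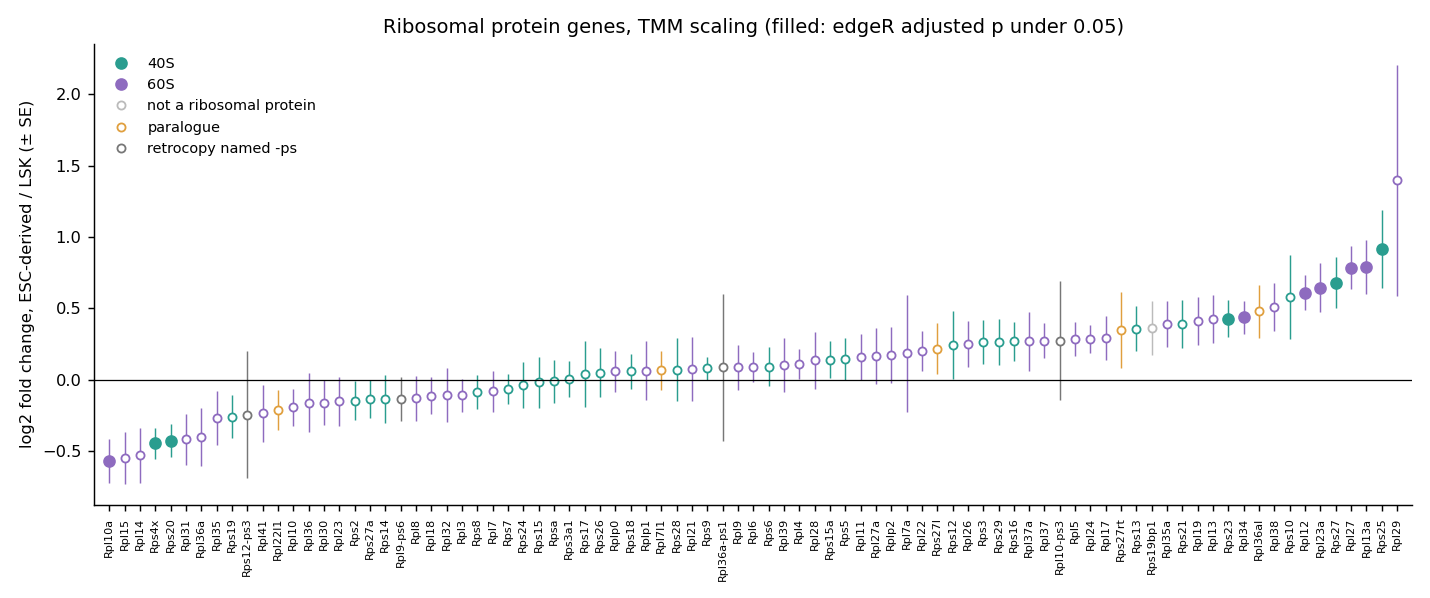
log2 fold change of 85 tested members (ESC-derived over LSK, TMM scaling; y axis) in increasing order, with the SE as bars, coloured by class; filled points passed an adjusted p of 0.05. Rpl39l, at 0 to 0.175 CPM in LSK libraries, and 2 others are not drawn. Most members lie within 0.5 of 0, with Rpl10a at -0.57 and Rps25 at 0.91, and Rpl29 at 1.40 has the widest bar of the 40S and 60S genes.

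**Figure D3:**
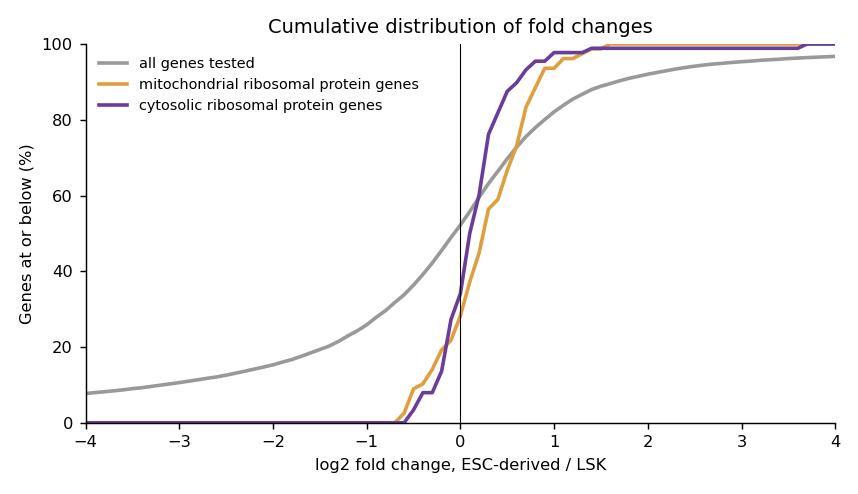
Cumulative distribution of the log2 fold change (x axis; the part from -4 to 4) over all 16211 genes tested, 78 mitochondrial and 88 cytosolic ribosomal protein genes; the y axis is the percent of genes at or below a value. The cytosolic curve is the steepest of the 3, with 84.1% of its genes within 0.5 of 0.

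Among the 40S genes, Rps25 (chr9:44407139-44410427, plus strand in mm10, as are all coordinates here) encodes a protein that some internal ribosome entry sites need. It measured 455, 479 and 527 CPM in the LSK libraries and 1321, 830.2 and 604 CPM in the ESC-derived libraries, in the order of replicates 1 to 3 here and below. All ESC-derived values were above all LSK values, but they spread more than 2-fold, with replicate 3 close to the LSK range. The log2 fold change was 0.91 ± 0.27 (SE) with an adjusted p of 0.0435 in the edgeR fit, and in the 6 fits that left out 1 library it was called only without ESC-derived replicate 3. Rps27 (chr3:90212522-90213651, minus strand), a zinc finger protein of the 40S subunit, measured 466, 489 and 565 CPM in the LSK libraries and 817, 995 and 623 CPM in the ESC-derived libraries. The groups did not overlap, and the log2 fold change was 0.68 ± 0.18 (edgeR adjusted p 0.0301). Rps23 (chr13:90922958-90924950, plus strand), which reaches into the decoding centre, measured 608, 562 and 561 CPM in the LSK libraries and 906, 757 and 666 CPM in the ESC-derived libraries, a log2 fold change of 0.43 ± 0.13 (edgeR adjusted p 0.0476). Of the 4 scalings, Rps27 was called under 3, Rps25 under 2 and Rps23 under TMM only, and with library totals their adjusted p in edgeR was 0.0717, 0.0963 and 0.362. Of these 3, each was called in 1 of the 6 fits that left out a library, and none without LSK replicate 2.

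Among the 60S genes, Rpl27 gave the steadiest rise. Rpl27 (chr11:101442298-101445529, plus strand), one of the Diamond-Blackfan anaemia genes, measured 255, 281 and 292 CPM in the LSK libraries and 528, 519 and 382 CPM in the ESC-derived libraries. The lowest ESC-derived value lay above the highest LSK value, and the log2 fold change of 0.79 ± 0.15 (edgeR adjusted p 0.00851) was called in all 6 fits that left out a library. Rpl13a (chr7:45125558-45128761, minus strand) encodes a 60S protein that also acts outside the ribosome, as part of a translational silencing complex in myeloid cells. It measured 697, 905 and 1039 CPM in the LSK libraries and 1450.1, 1822 and 1289 CPM in the ESC-derived libraries, again without overlap, a log2 fold change of 0.79 ± 0.19 (edgeR adjusted p 0.0204). It was called under all 4 scalings and in 3 of the 6 fits that left out a library, with an adjusted p of 0.0732 without LSK replicate 2.

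Rpl23a (chr11:78180932-78183584, minus strand), which sits at the exit of the nascent peptide tunnel, measured 247, 294 and 327 CPM in the LSK libraries and 452, 537 and 368 CPM in the ESC-derived libraries, a log2 fold change of 0.64 ± 0.17 (edgeR adjusted p 0.0302). Rpl12 (chr2:32961559-32965345, plus strand), at the base of the stalk that recruits translation factors, measured 274, 249 and 239 CPM in the LSK libraries and 369, 442 and 352 CPM in the ESC-derived libraries, a log2 fold change of 0.61 ± 0.12 (edgeR adjusted p 0.011). Rpl34 (chr3:130726831-130730398, minus strand), a further 60S protein, measured 284, 252 and 282 CPM in the LSK libraries and 403, 377 and 328 CPM in the ESC-derived libraries, a log2 fold change of 0.44 ± 0.12 (edgeR adjusted p 0.0283). For all 3 genes every ESC-derived library was above every LSK library. Rpl12 was called in 5 of the 6 fits that left out a library, Rpl23a in 2 and Rpl34 in 1, and none of the 3 without LSK replicate 2 or with library totals only.

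The 3 lower members were lower in every ESC-derived library. Rpl10a (chr17:28328471-28331033, plus strand), a 60S protein of the stalk through which deacylated tRNA leaves, measured 633, 739.9 and 924 CPM in the LSK libraries and 549.8, 529 and 469.7 CPM in the ESC-derived libraries. The LSK values spread more than the ESC-derived ones, and the log2 fold change was -0.57 ± 0.15 (edgeR adjusted p 0.0321). Rps4x (chrX:102184941-102189394, minus strand), a 40S protein encoded on the X chromosome, measured 904, 961 and 1056 CPM in the LSK libraries and 778, 714 and 651 CPM in the ESC-derived libraries, a log2 fold change of -0.45 ± 0.11 (edgeR adjusted p 0.0216). Rps20 (chr4:3831334-3835665, minus strand), of the 40S head, measured 368, 398 and 467 CPM in the LSK libraries and 318, 304 and 295 CPM in the ESC-derived libraries, a log2 fold change of -0.43 ± 0.12 (edgeR adjusted p 0.0318). All 3 were called under all 4 scalings. None was called without LSK replicate 2, where the adjusted p was 0.0784 for Rpl10a, 0.0688 for Rps4x and 0.0840 for Rps20, and none in the blocked fit (0.0913, 0.0811 and 0.0881).

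Since the total moved with scaling, each member was also set against the ribosomal protein total of its own library. A member was called apart from the rest at an adjusted p under 0.05 and a relative log2 fold change of at least 0.5 in size. By that rule 6 members took a larger part of the ribosomal protein counts in ESC-derived cells and 7 a smaller part, of 88, beside 10.9% and 14.9% of all genes, 25.8% in either direction. The larger parts included those of Rps25, at 0.78 ± 0.23 relative to the total, Rpl13a (0.68), Rpl27 (0.66), Rps27 (0.55) and Rpl23a (0.53). Of the ribosomal protein counts, Rpl27 held 0.5099, 0.525 and 0.474% against 0.852, 0.784 and 0.754% (LSK against ESC-derived libraries). Rps25 held 0.909, 0.895 and 0.855% against 2.13, 1.25 and 1.19%, so its ESC-derived replicate 1 stood out. These 6 also passed the test on the scaled libraries.

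Of the 7 with smaller parts, 4 did not pass on the TMM-scaled libraries. Rpl15, a 60S protein and Diamond-Blackfan anaemia gene, measured 471, 550.4 and 687 CPM in the LSK libraries and 369, 464 and 335 CPM in the ESC-derived libraries, and its relative log2 fold change was -0.66 ± 0.13 (edgeR adjusted p 0.00977; 0.0635 on the TMM scale). Rpl14, a 60S protein, measured 809, 991 and 1275 CPM in the LSK libraries and 685, 825 and 616 CPM in the ESC-derived libraries, and its relative log2 fold change was -0.63 ± 0.13 (edgeR adjusted p 0.0112). Rpl31, at the tunnel exit, was at -0.54 ± 0.12, and Rpl36a, near the tRNA exit site and also on the X chromosome, at -0.53 ± 0.14. Rpl10a (-0.67), Rps4x (-0.55) and Rps20 (-0.52) completed the group. For Rpl14, 1.62, 1.85 and 2.07% against 1.11, 1.25 and 1.22% of the ribosomal protein counts lay in this gene. Without LSK replicate 2, 3 members were apart and higher (Rpl27 and Rpl13a among them) and 1 lower (Rpl10a), beside 5.94% and 6.28% of genes (12.2% in either direction). The other 5 omissions gave 3 (without ESC-derived replicate 2) to 6 higher, and 4 lower without LSK replicate 1, LSK replicate 3 or ESC-derived replicate 1, while over all genes these 5 omissions left 1236 to 1572 higher and 1619 to 2704 lower, against 1766 and 2418 with every library. Rpl27, Rpl13a and Rpl10a were apart in each of the 6 fits that left out a library. Rpl15 and Rpl14 were apart in 5 of these fits, Rps4x and Rps27 in 4 and Rpl23a in 3. Less steady were Rpl31, apart in 2, and Rpl36a, Rps20 and Rps25, apart in 1 each.

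**Figure D4:**
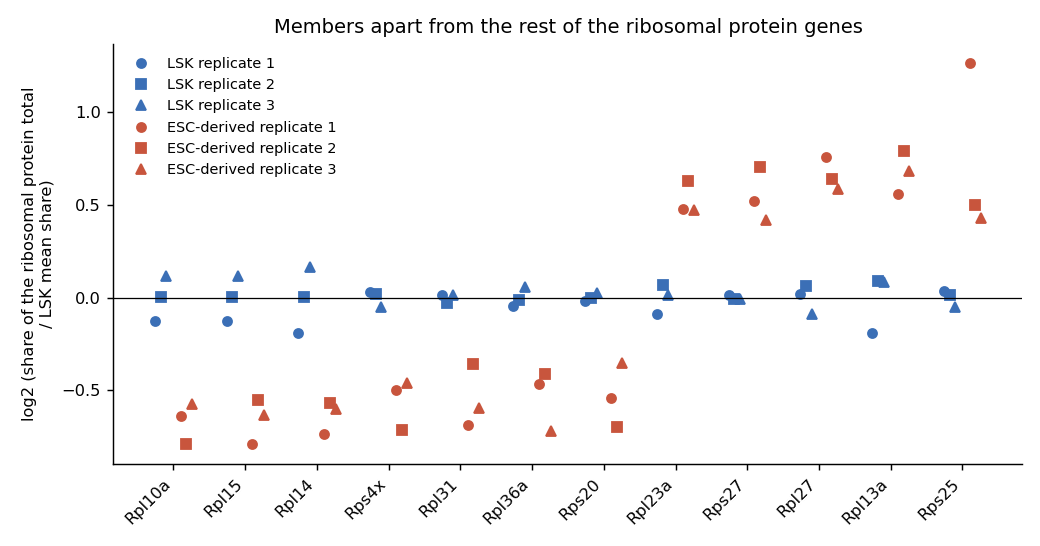
Share of the ribosomal protein total held by 12 of the 13 members apart from the rest, as log2 of the ratio to the mean LSK share (y axis), for each library (blue LSK, red ESC-derived; circle, square and triangle for replicates 1, 2 and 3). LSK libraries lie near 0, the 7 genes on the left have every ESC-derived library below every LSK library and the 5 on the right every one above; Rps25 has the widest ESC-derived spread.

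The functional sites of the ribosome were described from fixed lists. Of the P stalk, which activates the elongation factor GTPases, 0 of 3 genes were called by edgeR, DESeq2 or limma-voom, and 0 by edgeR at an unadjusted p under 0.05. With edgeR calling 30.0% of all genes, a list of 3 genes with 0 called shows little. Rplp0 measured 1530.3, 1809.8 and 2142 CPM in the LSK libraries and 1923, 2074 and 1706 CPM in the ESC-derived libraries, a log2 fold change of 0.057 ± 0.15, with overlapping groups. Rplp1 had 0.062 ± 0.21 and Rplp2 0.17 ± 0.20. Of 8 genes at the nascent peptide exit, edgeR called 1 higher (Rpl23a) and 0 lower (0 lower at an unadjusted p under 0.05 and by limma-voom, 1 by DESeq2), beside 14.8% and 15.2% of all genes, with a median of 0.22. Rpl22, an exit site protein that αβ T cell development requires, measured 113, 114 and 142 CPM in the LSK libraries and 157, 136 and 129.9 CPM in the ESC-derived libraries, a log2 fold change of 0.20 ± 0.14 (edgeR adjusted p 0.348). Its LSK replicate 3 lay within the ESC-derived range. Rpl38, which helps translate a subset of Hox mRNAs, measured 259.7, 252 and 267 CPM in the LSK libraries and 334, 468 and 308 CPM in the ESC-derived libraries, a log2 fold change of 0.51 ± 0.17 that did not pass (edgeR adjusted p 0.0611) although the groups did not overlap.

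Among 18 Diamond-Blackfan anaemia genes edgeR called 2 higher (Rpl27 and Rps27) and 0 lower (1 lower at an unadjusted p under 0.05 and by limma-voom, 2 by DESeq2), which is 11.1% of the list called beside 30.0% of all genes, with a median of 0.058, beside -0.066 for all genes. Relative to the ribosomal protein total, 2 of the list were apart and higher and 2 apart and lower, beside 10.9% and 14.9% of all genes. Rps19, the gene most often mutated in that disease, measured 1460.5, 1548 and 1729 CPM in the LSK libraries and 1344, 1538 and 1068 CPM in the ESC-derived libraries, a log2 fold change of -0.26 ± 0.15 (edgeR adjusted p 0.25), and its groups overlapped. Relative to the ribosomal protein total, Rps19 was at -0.38 ± 0.09 (edgeR adjusted p 0.0196), under the size of 0.5 set for a member apart. It held 2.92, 2.89 and 2.80% of that total in LSK and 2.17, 2.32 and 2.11% in ESC-derived libraries. Rpl5 and Rpl11, which with 5S ribosomal RNA bind Mdm2 and so stabilise p53 when assembly fails, had log2 fold changes of 0.28 ± 0.12 and 0.16 ± 0.16, and Rpl5 was higher in every ESC-derived library, at 571, 574 and 558 against 699, 779.7 and 593 CPM. Neither passed (of the 4 genes of this list 1 was higher at an unadjusted p under 0.05 in edgeR, and DESeq2 and limma-voom called 0), nor did Mdm2 (-0.15 ± 0.23) or Trp53 (0.084 ± 0.16). Beside the 30.0% of all genes that edgeR called, 0 of 4 shows little. Rps14, whose loss in human marrow accompanies a form of myelodysplasia, had -0.14 ± 0.17. The values of the abundant Rpl13, 2578, 2883 and 3292 CPM in the LSK libraries and 4051, 4588 and 3116 CPM in the ESC-derived libraries, overlapped as well, with a log2 fold change of 0.43 ± 0.17 (edgeR adjusted p 0.101). Relative to the ribosomal protein total, Rpl13 was at 0.31 ± 0.08 (edgeR adjusted p 0.0325), also under 0.5. Its part of that total was 5.15, 5.39 and 5.34% in LSK and 6.54, 6.93 and 6.16% in ESC-derived libraries.

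The 4 members on the X chromosome were Rps4x, Rpl36a, Rpl10 and Rpl39, with log2 fold changes of -0.45, -0.40, -0.19 and 0.10. Only Rps4x passed. Rpl39, a small protein of the tunnel wall, measured 146, 125 and 128 CPM in the LSK libraries and 171, 150.5 and 107 CPM in the ESC-derived libraries, and Rpl10, a 60S protein at the peptidyl transferase centre, 361, 375 and 419 CPM in the LSK libraries and 335, 384 and 291 CPM in the ESC-derived libraries. Both pairs of groups overlapped.

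Spread between libraries of the 77 genes of the 2 subunits was larger in the ESC-derived group. The coefficient of variation of CPM over the 3 libraries had a median of 10.2% in LSK and 16.998% in ESC-derived cells. LSK replicate 2 lay close to a weighted mean of LSK replicates 1 and 3, which can lower the LSK spread. ESC-derived replicate 3 had the lowest CPM of its group for 69 of the 77 genes. The spread over all genes is not given, so the difference is not read as a trait of these genes. Rpl29, a 60S protein that is dispensable for life in mice, varied most of these 77 in LSK cells, at 188, 45.05 and 16.4 CPM in the LSK libraries and 144, 281 and 232 CPM in the ESC-derived libraries. LSK replicate 1 was thus within the ESC-derived range while LSK replicates 2 and 3 were far below it. Its log2 fold change of 1.40 ± 0.81 was the largest of the 40S and 60S genes and did not pass (edgeR adjusted p 0.255). Rps10 varied most of the 77 among ESC-derived libraries, at 292, 186 and 123 CPM, against 136, 122 and 144 CPM in LSK cells. Rps9 was the steadiest there, at 976, 1010.4 and 978 CPM, against 905, 939 and 965 CPM.

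Several members have paralogues or retrocopies, and the sequences show how far reads can be split between them. Rps27 has a retrocopy, Rps27rt, with an identical coding sequence over 255 bases, and a paralogue, Rps27l, that is 76.1% identical. The first 60 coding bases, from the annotated transcripts and written 5′ to 3′ with bases unlike Rps27 in capitals, show that a read from Rps27 and Rps27rt reads the same there while Rps27l differs at 18 positions.
Rps27: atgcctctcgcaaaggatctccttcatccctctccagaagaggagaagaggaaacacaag
Rps27rt: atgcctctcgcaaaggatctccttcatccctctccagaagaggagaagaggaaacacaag
Rps27l: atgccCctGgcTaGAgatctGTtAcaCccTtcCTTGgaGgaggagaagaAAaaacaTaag
Counts of Rps27 and Rps27rt are therefore uncertain as to which gene they belong to, and those of Rps27l are not subject to that limit within the coding sequence. Rps27rt measured 119.6, 115 and 136 CPM in the LSK libraries and 179, 197 and 95.1 CPM in the ESC-derived libraries, a log2 fold change of 0.35 ± 0.27 (edgeR adjusted p 0.389). Rps27l, a gene that p53 induces, measured 413, 351 and 321 CPM in the LSK libraries and 454, 483 and 325 CPM in the ESC-derived libraries, a log2 fold change of 0.22 ± 0.18 that did not pass. Rps27l per Rps27 was 0.887, 0.718 and 0.568 in LSK and 0.556, 0.485 and 0.521 in ESC-derived libraries, lower in each of the latter.

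Ratios of paralogue to parent gene within a library do not depend on scaling, and 3 libraries against 3 cannot give a permutation p below 0.10, so they are given as values. Rpl36al, an autosomal relative of the X-linked Rpl36a with 87.9% identical coding bases, was counted at 1.93, 1.900 and 1.69 times Rpl36a in LSK and 3.35, 3.39 and 3.36 times in ESC-derived libraries. The ESC-derived ratios lay within a narrow band above all LSK ratios. Rpl36al itself measured 387, 417 and 449 CPM in the LSK libraries and 621, 698 and 426 CPM in the ESC-derived libraries, a log2 fold change of 0.48 ± 0.19 (edgeR adjusted p 0.102), and Rpl36a 201, 219 and 266 CPM in the LSK libraries and 185, 206 and 127 CPM in the ESC-derived libraries, -0.40 ± 0.20 (edgeR adjusted p 0.194). Neither gene passed on its own.

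Rpl22l1, a paralogue of Rpl22 with 74.4% identical aligned coding bases, measured 164, 155 and 133 CPM in the LSK libraries and 148, 123 and 119.7 CPM in the ESC-derived libraries, a log2 fold change of -0.21 ± 0.14 that did not pass. Per Rpl22 it was 1.45, 1.37 and 0.942 in LSK and 0.942, 0.901 and 0.921 in ESC-derived libraries. LSK replicate 3 and ESC-derived replicate 1 differed only in the fourth digit, so the groups touched. Rpl7l1 per Rpl7, which differ at many coding bases (63.4% identical), was 0.237, 0.222 and 0.183 and 0.197, 0.219 and 0.299 and overlapped. Rpl39l, a paralogue of Rpl39 known from testis, was near the detection limit, with 8 counts over the LSK and 100 over the ESC-derived libraries. The ratio of its summed levels was 13.3, with an exact 95% interval of 3.32 to 115.8 that covers counting error only, taking 4 counts as 1 fragment, and its test did not pass (edgeR adjusted p 0.157).

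The low-count filter removed 4 members. Rpl3l, the muscle paralogue of Rpl3, had 48 counts over the LSK libraries, in replicates 2 and 3, and 0 in ESC-derived cells, at least 3.76-fold lower against a floor of 12 counts over a group. Rpl10l, a paralogue of Rpl10 known from testis, had 4 counts in the LSK libraries and 0 in the ESC-derived ones. Rpl36-ps4 and Rpl9-ps1 were at 0 throughout. Rps19bp1 measured 62.4, 66.98 and 88.8 CPM in the LSK libraries and 101, 77.7 and 102 CPM in the ESC-derived libraries, a log2 fold change of 0.36 ± 0.19 (edgeR adjusted p 0.214).

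Rps4l, a processed pseudogene related to Rps4x on chromosome 6 and outside the members because the annotation does not list it as protein-coding, differed far more than its parent. It measured 34.4, 31.8 and 44.1 CPM in the LSK libraries and 0.452, 0.2598 and 0.169 CPM in the ESC-derived libraries. The groups were far apart, at a log2 fold change of -6.96 ± 0.46 (edgeR adjusted p 0.000125), beside -0.45 for Rps4x. The sequences of Rps4l and Rps4x are 80.1% identical over 789 aligned bases. Its level per Rps4x was 0.03799, 0.0331 and 0.0418 in LSK libraries, and in ESC-derived libraries it was at most 0.000581.

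**Figure D5:**
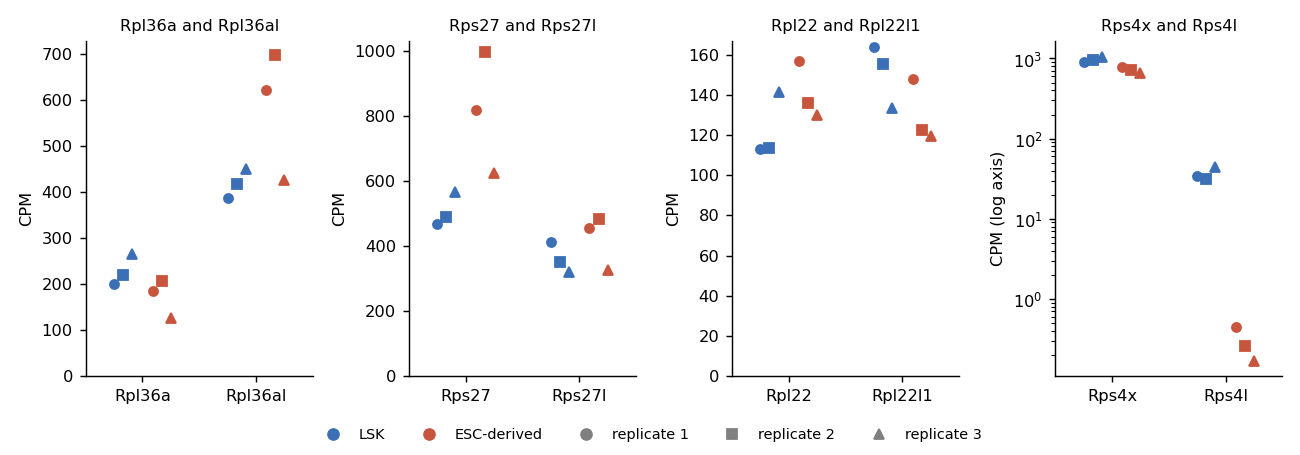
CPM (y axis; a log axis for the last panel) of 4 pairs of parent gene and relative in each library: Rpl36a and Rpl36al, Rps27 and Rps27l, Rpl22 and Rpl22l1, Rps4x and Rps4l. Blue points are LSK and red points ESC-derived libraries, with replicates 1, 2 and 3 as circle, square and triangle. Rpl36al and Rpl36a lie further apart in ESC-derived libraries, and Rps4l lies between 31.8 and 44.1 CPM in LSK and between 0.169 and 0.452 CPM in ESC-derived libraries.

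Processed pseudogenes of ribosomal protein genes are abundant in the mouse genome, and the table has 283 rows named after a member with "-ps" that are no members. They held 0.297, 0.318 and 0.352% of all counts in LSK and 0.281, 0.289 and 0.244% in ESC-derived libraries, and 4.98 to 5.23% and 4.72 to 4.78% of the counts in members and pseudogenes together. Of 118 such rows tested, 4 were higher and 4 lower, beside 14.8% and 15.2% of all genes. Higher were, among others, Rpl27-ps3 (1.15) and Rpl38-ps2 (0.86). Lower were Rpl10a-ps1 (-0.78), Rpl15-ps3 (-0.68), Rps2-ps9, at least 8.07-fold, and Rpl23a-ps2, at least 3.996-fold, the last 2 with 0 counts in ESC-derived cells. Of those named, all but Rpl23a-ps2 had a fold change of the same sign as their parent gene. The parents Rps2 (-0.15, edgeR adjusted p 0.472), Rpl38 (0.0611) and Rpl15 (0.0635) were not themselves called on the TMM scale. Rpl27-ps3, Rpl10a-ps1 and Rpl15-ps3 are identical to the coding sequences of their parents, so counts there cannot be assigned with certainty.

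For most members the copies in these rows took few counts. Pseudogenes named in another way were not counted, so the shares below can be too low. Of the 77 genes of the 2 subunits, 56 have such copies, which held a median of 4.05% of the counts of gene and copies together. For 3 they held more than the gene itself: 80.7% for Rpl17, 72.2% for Rpl7a and 71.1% for Rpl21. Retrocopies that are members were not counted as copies here. Of these, Rps12-ps3 has the same coding sequence as Rps12 over 399 bases. It had 17894 counts over the 6 libraries, beside 18089 for Rps12 and 10962 for the copies of Rps12 counted here. With Rps12-ps3 included, more counts thus lay outside Rps12 than in it. Adding the copies counted here changed the log2 ratio of group means by at most 0.245. That was for Rpl21, which went from 0.075 to -0.171. For Rpl23a the ratio went from 0.64 to 0.57, and for Rpl17 from 0.29 to 0.13.

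Start sites of members were read for pyrimidine runs, since the TOP motif begins at the first base of the mRNA. The windows come from RefSeq promoters (GRCm38.p6) and hold 10 bases before and 20 bases from the annotated start, which is not always the start used in a cell. Of the 77 genes of the 2 subunits, 47 had a start that matched the annotation within 50 bases. A run of at least 8 pyrimidines was in 16 of the 47 windows, 34.0%, beside 11.04% of 14215 genes, and covered the start in 13, 27.7%, beside 3.55%. The windows below are those of the called or apart members with a match that show the range, 5′ to 3′ on the gene's strand, with the longest run of pyrimidines in capitals.
Rpl34 (chr3:130730318-130730347, minus strand): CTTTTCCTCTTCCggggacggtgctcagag
Rps27 (chr3:90213629-90213658, minus strand): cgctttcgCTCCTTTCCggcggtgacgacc
Rpl13a (chr7:45128726-45128755, minus strand): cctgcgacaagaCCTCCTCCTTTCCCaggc
Rps25 (chr9:44407704-44407733, plus strand): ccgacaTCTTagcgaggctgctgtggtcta
Rpl15 (chr14:18270967-18270996, minus strand): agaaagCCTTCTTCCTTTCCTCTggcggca
Rpl10a (chr17:28328461-28328490, plus strand): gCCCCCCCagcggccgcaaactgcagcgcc
Rps4x (chrX:102189372-102189401, minus strand): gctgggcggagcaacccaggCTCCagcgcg
Rpl34, Rps27 and Rpl13a, all higher in ESC-derived cells, have runs of 13, 9 and 14 bases, which cover the start in Rpl34 and Rps27. Rpl15 has a run of 17 bases over its start and took a smaller part of the ribosomal protein counts there, while the windows of Rps25 (higher) and Rps4x (lower) hold runs of 4 bases and that of Rpl10a (lower) a run of 7 before the start. Rpl27, Rpl23a, Rpl12, Rps23 and Rps20 had no matched entry. In the whole 300-base promoters, counted on both strands, CCGGAAG (a core bound by ETS family factors) was in 19 of the 47, 40.4%, beside 12.7% of all genes. AAGATGG (the core of the YY1 motif) was in 14.9% beside 6.63%, and CACGTG (the E-box of MYC and related factors) in 10.6% beside 8.17%. These are letter matches and not sites of binding.

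Of the ribosomal proteins outside the rule, Fau measured 492, 531 and 623 CPM in the LSK libraries and 851, 956 and 664 CPM in the ESC-derived libraries, a log2 fold change of 0.59 ± 0.16 (edgeR adjusted p 0.0336), and was higher in every ESC-derived library. Rack1, at 0.29 ± 0.091, did not pass (edgeR adjusted p 0.0522).

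Mitochondrial ribosomal protein genes were taken by symbol (Mrpl or Mrps and a number), so not every product need be part of that ribosome. They were higher in 21 of 78 cases (26.9%) and lower in 1 (1.28%), beside 14.8% and 15.2% of all genes. Their median log2 fold change was 0.24, beside 0.096 for the cytosolic members. They held 0.924, 0.890 and 0.861% of all counts in LSK and 0.883, 0.928 and 0.956% in ESC-derived libraries, with overlapping ranges. Together with the other related lists (123 tested genes), 32 were higher and 3 lower. With library totals these numbers were 15 and 13, beside 10.8% and 18.9% of all genes. Mrpl33 measured 153, 114 and 114 CPM in the LSK libraries and 358, 408 and 335 CPM in the ESC-derived libraries, a log2 fold change of 1.54 ± 0.16 (edgeR adjusted p 0.000743), and Mrps36 54.7, 42.9 and 43.4 CPM in the LSK libraries and 126, 119 and 120.4 CPM in the ESC-derived libraries, 1.38 ± 0.15 (edgeR adjusted p 0.00082). Mrps34 was the lower one, at -0.54 ± 0.16 (edgeR adjusted p 0.0416). The difference between the 2 families was not tested.

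Of 18 translation factors and other mRNAs known to carry a TOP motif, edgeR called 5 higher and 0 lower (2 lower at an unadjusted p under 0.05 and by DESeq2, 1 by limma-voom), with a median of 0.18. In either direction that is 27.8% of the list, near the 30.0% of all genes. Eif3e, a subunit of the initiation factor that holds the 40S subunit, measured 145, 158 and 135 CPM in the LSK libraries and 272, 250.1 and 277 CPM in the ESC-derived libraries, a log2 fold change of 0.87 ± 0.11 (edgeR adjusted p 0.00161). Tpt1, an abundant TOP mRNA, measured 468, 475 and 483 CPM in the LSK libraries and 761, 785 and 657 CPM in the ESC-derived libraries, 0.63 ± 0.10 (edgeR adjusted p 0.00451). Btf3, Eif3h and Eef1d were the other 3. Eef1a1, the most abundant elongation factor, had 0.091 ± 0.12 and did not pass. Of 14 genes of mTORC1 and TOP mRNA control, 2 were higher and 2 lower, 14.3% each way, which is close to the 14.8% and 15.2% of all genes. Rps6kb2, an S6 kinase, measured 417, 332 and 342 CPM in the LSK libraries and 748, 751 and 751 CPM in the ESC-derived libraries, a log2 fold change of 1.04 ± 0.11 (edgeR adjusted p 0.000967), and Rheb, the GTPase that activates mTORC1, had 0.58 ± 0.12 (edgeR adjusted p 0.0132). Eif4ebp1, a translational repressor that mTORC1 inactivates, measured 165, 163 and 168 CPM in the LSK libraries and 49.2, 71.1 and 77.6 CPM in the ESC-derived libraries, -1.32 ± 0.18 (edgeR adjusted p 0.00261), and Akt1s1, an mTORC1 inhibitor, had -1.52 ± 0.34 (edgeR adjusted p 0.0166). Mtor (0.32) and Larp1 (0.38) did not pass.

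Of 9 genes of ribosomal protein chaperones and 40S assembly, edgeR called 2 higher and 0 lower (1 lower at an unadjusted p under 0.05 and by DESeq2, 0 by limma-voom), 22.2% of the list beside 30.0% of all genes. Bccip, named for its binding of BRCA2 and CDKN1A, measured 101, 95.5 and 80.6 CPM in the LSK libraries and 222, 168 and 176 CPM in the ESC-derived libraries, a log2 fold change of 1.03 ± 0.16 (edgeR adjusted p 0.00361), and Pdcd2, which carries Rps2, had 0.81 ± 0.19 (edgeR adjusted p 0.02). The parts that the T cell, B and plasma cell and neutrophil transcripts given above have in any of these differences were not tested.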

How the data were processed

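RNA of 2000 sorted cells per library was made into cDNA with the SMART-Seq v4 kit and into libraries with the Nextera XT kit, and sequenced on an Illumina instrument, per the labels' protocols. HISAT, StringTie and the build mm10 are named, without versions, in the submitters' processing notes. Settings, annotation and counting program are not stated there. Per gene, the authors deposited estimated counts, written as whole numbers and not normalized. The names of the 6 value columns stand in a single field of the header, and columns were assigned in the order of that field. Values divisible by 4 were in excess (40.1 to 47.2% of values from 1 to 20), so 1 fragment was often worth about 4 counts, and the floor for genes at 0 is 12 counts over a group, or 3 fragments. Floors and intervals cover counting error only, since the reads carry no molecular identifiers.

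Gene IDs were matched to GENCODE M21 (55141 matched, 260 did not), which gave symbols, positions and biotypes. After filterByExpr, 16211 genes were fitted in edgeR 4.0.16 (R 4.3.3) with TMM factors, and the quasi-likelihood F test was run robustly, two-sided and without a block, as ESC-derived minus LSK. The relative fit set the size of each library to its ribosomal protein total, with no TMM factor. DESeq2 1.42.0 and limma 3.58.1 (voom) were alternatives, with other scalings, filters, a 2-fold test, values divided by 4, libraries without immunoglobulin genes, a replicate block and each library left out. Coding sequences were aligned with Biopython 1.88. The fit was tested on simulated counts. Named genes were the 8 largest rises and falls among called members without overlap, the 6 largest and smallest relative changes among members apart, the 8 most abundant members, those not tested, a fixed set of paralogues and disease genes, and up to 2 genes per direction of each related list. Members with unusual spread, pseudogenes and genes with many copies were chosen after their values were seen. The members and lists were chosen with earlier results of these data known. Some genes count in the totals but are not reported here by name.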

Additional observations from a re-analysis of the deposited data

How the results depend on the processing

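Across 670 refits of single genes on scaled libraries, 585 kept their side of the threshold, 59 lost the call, 26 gained it and 0 were recorded as reversed. For genes without a call the direction need not be kept, since library totals moved the member median from 0.096 to -0.15. Of 182 refits relative to the ribosomal protein total, 149 kept their side of the threshold and 33 lost the call. The number of members called higher was 9, and 2 to 22 when 1 library was left out; the number called lower was 3, and 0 to 5. The numbers apart from the rest were 6 and 7, and 3 to 6 and 1 to 6 when 1 library was left out. The related lists together had 32 of 123 tested genes higher and 3 lower (all genes: 2395 and 2466 of 16211), and 15 (without LSK replicate 2) to 26 higher and 1 (without LSK replicate 2 or 3) to 7 (without ESC-derived replicate 3) lower under the same omissions, while all genes called fell to 1466 and 1250 without LSK replicate 2. The mitochondrial ribosomal protein genes made up 78 of the 123 and gave 21 of the 32 higher calls. The share of counts differed by -0.731 to -0.239 percentage points (ESC-derived minus LSK) and the median log2 fold change was 0.042 to 0.23.

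With library totals only, 3 members were higher and 14 lower, the median was -0.15, and the related lists had 15 higher and 13 lower. Over all genes, library totals gave 1756 higher and 3057 lower and a median of -0.31. The test against a 2-fold change called 0 members higher and 0 lower, 0 and 0 apart, and 2 and 0 genes of the related lists. Over all genes it called 971 higher and 1383 lower, and 841 and 1429 relative to the ribosomal protein total. DESeq2 called 6 members and 12 genes of the related lists lower, beside 3380 of all genes. With limma-voom and with upper quartile scaling, 5 related genes each were lower, beside 3124 and 2504 of all genes. TMM over the ribosomal protein genes alone left 4 members apart and lower, beside 2329 of all genes. The difference in share was -1.37 percentage points among protein-coding counts, with every ESC-derived library below every LSK library. The pseudogene share differed by -0.051 percentage points of all counts and -0.361 of member and pseudogene counts. With the replicate number as a block, 4 members were higher (among them Rpl27, Rpl13a and Rpl12) and 0 lower (11 and 4 at an unadjusted p under 0.05 in edgeR), 3 and 3 were apart, and 19 related genes were higher; over all genes the block left 1732 higher and 1488 lower, and 1014 and 1226 apart. The labels do not say that a replicate number is shared between the groups, so the numbers were not taken as pairs. Deviations of same-numbered libraries correlated at 0.0043, 0.054 and 0.0063, which cannot settle whether they are pairs. Fewer samples were fitted without a library; other causes were not tested.

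Depth limited the paralogues Rpl3l, Rpl10l and Rpl39l and the copies at or under 12 counts in a group, where no level can be told from 0.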
